A study of Saccharomyces cerevisiae with 4 samples.

Results

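Convergent mRNAs with overlapping 3′ ends are neighbours that are transcribed towards each other and whose annotated regions share a stretch at their 3′ ends. They were found by position alone in the annotation that was used for counting. A pair was formed where an mRNA region on the plus strand began upstream of a region on the minus strand and ended inside it. This gave 767 pairs with 1533 members, 31.2% of the 4909 mRNA regions and part of the 4970 regions counted in all; 1 member, RSA1, belonged to 2 pairs. The rule itself used no measured value, but it was chosen with earlier results of these data known.

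The study labelled new transcripts with 4-thiouracil (4tU-seq) in budding yeast, Saccharomyces cerevisiae, of the MATa haploid strain BY4741. The 2 groups were Δsyc1 cells, in which kanMX replaced SYC1 (2 libraries), and wild-type cells (2 libraries), both at 30 °C in YPD at an OD600 of 0.8 and given 5 mM of the label for 6 min before purification of the labelled RNA. The libraries of Δsyc1, the knockout, held 26089573 and 22880058 counts, against 36175417 and 35203133 in those of the wild-type. SYC1, which is no member, had 1 and 2 counts in the knockout libraries, against 743 and 794 in the wild-type libraries, and LEU2, URA3 and MET17, which BY4741 lacks, had 0 counts in all 4 libraries. Of the MATa genes, STE2 and BAR1 were abundant in all 4 libraries. AGA2 was lower, with 173 and 108 counts in the knockout libraries, against 882 and 956 in the wild-type libraries. Their log2 fold changes, from the test described below, were −1.28 for STE2, −0.93 for BAR1 and −2.02 for AGA2. The a-factor genes MFA1 and MFA2 had −0.48 and −1.47. Genes of α-cells were mixed. MF(ALPHA)1, for the α-factor, had 1 and 0 counts in the knockout libraries, against 5 and 5 in the wild-type libraries, and STE3, the a-factor receptor gene, had 108 and 70 counts in the knockout libraries, against 105 and 110 in the wild-type libraries, but SAG1, the α-agglutinin gene, had 2388 and 1982 counts in the knockout libraries, against 3300 and 3387 in the wild-type libraries. No spike-in was used here, so every change is relative to the other RNAs of its library, and a change in the amount of an RNA per cell cannot be told apart from a change in the kinds of cells in the culture.

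The 3′ end of a yeast mRNA is made by the cleavage and polyadenylation factor, CPF, which cuts the transcript and adds a poly(A) tail, and transcription ends downstream of that site. Between convergent genes, the polymerases of both genes run towards each other, and the 3′ ends of both transcripts come from the same short stretch of DNA, read on opposite strands. Syc1 is the subunit that marks the related APT complex, which shares the phosphatase module of CPF. Efficiency elements of yeast 3′ ends are rich in alternating T and A, and the hexamer TATATA reads the same on both strands, so that a copy in a shared stretch is present in both transcripts.

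The overlaps were short. Their length ran between 1 and 1743 nt, with a median of 94 nt and quartiles of 74 and 121 nt. Of the 767 pairs, 89 overlapped by up to 50 nt, 595 by more than 50 and up to 150 nt, 57 by more than 150 and up to 300 nt and 26 by more than 300 nt. A member had a median of 6.98% of its region inside its partner, and 25 members had more than 50% there. Positions of stop codons, taken from RefSeq for assembly R64, which is sacCer3, placed 385 overlaps within the 3′ UTRs of both partners. Another 275 overlaps reached the coding part of 1 partner and 81 reached that of both, and in the remaining 26 pairs a partner had no RefSeq gene. The annotated 3′ end lay a median of 125 nt past the stop codon in members (n = 1507) and 115 nt in the other mRNAs (n = 3318). By comparison, 525 further pairs of facing neighbours had a gap between their 3′ ends, with a median of 168 nt.

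**Figure D1:**
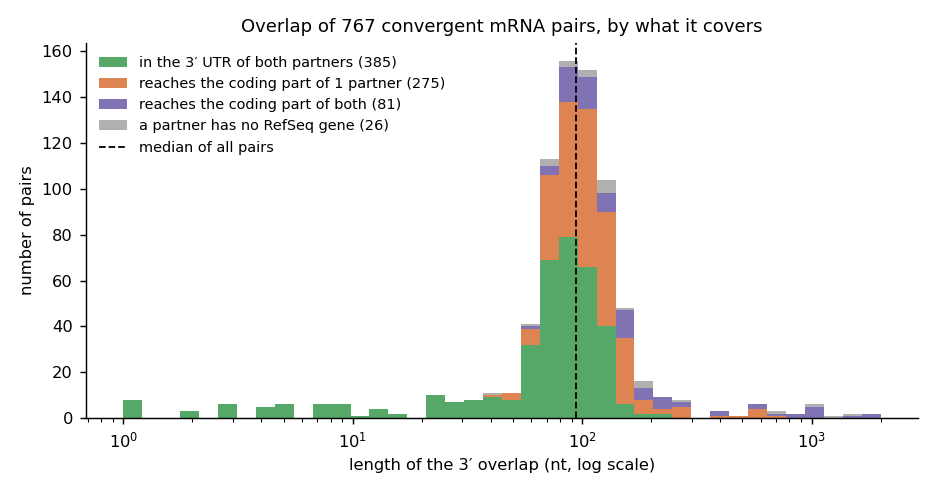
Number of convergent pairs (vertical axis) by the length of their 3′ overlap in nt (horizontal axis, log scale), with colours for what the overlap covers and a dashed line at the median. Most pairs lie close to the median of 94 nt, and the 26 pairs above 300 nt mostly reach coding parts.

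The letters of the shared stretch are shown for 8 pairs on which the results below turn, each as the plus strand, 5′ to 3′, in sacCer3 coordinates. Capitals mark TATATA. For the overlaps of BTT1 with MET32, HTL1 with HSP30, ARO9 with YHR138C and MET3 with SPC1, a window of 30 nt around the hexamer is shown, and for the other 4 pairs the whole overlap.
BTT1/MET32, chrIV:963936-963965: gttgcagatgaaTATATAttttcttatttg
HTL1/HSP30, chrIII:155956-155985: attgtgtttgtgTATATAatttattttgca
ARO9/YHR138C, chrVIII:377276-377305: atttgcatatcaTATATAaattgtagtttt
MET3/SPC1, chrX:457863-457892: tacatttattaaTATATATAatatatcaaa
UTR2/CYC7, chrV:79526-79555: aacttaaatatagactttttattcgcatgc
OAC1/VPH2, chrXI:218430-218450: atagagcattttttatttcac
HLR1/QCR7, chrIV:1495976-1495996: ataataaaattttaagttcag
HRP1/SMF1, chrXV:89566-89587: gaatagttattatttttttttc
TATATA was present in 379 of the 767 overlaps (49.4%). Stretches of the same lengths at the 3′ ends of the other mRNAs held it in 38.6%. In the last 100 nt of the transcript strand, TATATA was present in 50.6% of the 1533 members and 44.1% of the 3376 other mRNAs, TACATA in 26.9% and 21.5%, TATGTA in 27.0% and 21.1% and AAAAAA in 21.3% and 16.1%. GTAG and TCTT, letters known from binding of the termination factors Nrd1 and Nab3, were present in 21.3% and 46.8% of members and in 22.3% and 50.3% of the other mRNAs. The hexamers may overlap each other, and a match describes the letters only. The A+T content was 69.6% over all overlaps, 74.0% where they lay in the 3′ UTR of both partners, and 62.0% over whole members. In the last 100 nt it was 72.3% for members and 70.7% for the other mRNAs. The value over all overlaps was thus below that of 3′ ends in either set, while that of overlaps in the 3′ UTR of both partners was above. The stretches compared were unlike, since overlaps ran between 1 and 1743 nt and the 3′ ends were windows of 100 nt. Overlaps that reached a coding part had 68.4%.

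Members were transcribed at all levels. Values are given as CPM, counts per 1000000 counts of the TMM-scaled library, and levels per length as CPM per kb of the region. Median levels were 56.1 CPM per kb in Δsyc1 cells and 57.5 in wild-type cells for members, and 67.9 and 67.5 for mRNAs that are not members. Members took 23.1% and 22.8% of the counts of the knockout libraries and 24.0% and 24.1% of those of the wild-type libraries. The level was lower where more of the region lay inside the partner. Members with under 10% of their region there had a median of 66.6 CPM per kb in Δsyc1 cells and 66.9 in wild-type cells (n = 1050), and those with 60% or more had 15.6 and 13.0 (n = 22). Each of these 22 members still had at least 64 counts over the 4 libraries. Whether counting used the strand of a read is not given in the sources used here, and if it did not, reads from the shared stretch cannot be assigned to either partner.

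The most abundant members per length in wild-type cells were HSC82, which encodes an Hsp90 chaperone, HSP60, which encodes the mitochondrial chaperonin, CDC19, which encodes pyruvate kinase, and SPO24. HSC82 reached 2610.3 ± 162 CPM per kb in Δsyc1 cells and 2597 ± 111 in wild-type cells (SD, n = 2 each), and its groups overlapped. Of the 50-mers of HSC82, 6.08% occur elsewhere in the genome, so its counts are uncertain. The level of HSP60 was 1649 ± 13.9 in Δsyc1 cells and 1849 ± 44.6 in wild-type cells, that of CDC19 was 2758 ± 528 and 1807 ± 9.90, and that of SPO24 was 1391 ± 259.7 and 1719 ± 180.0. In Δsyc1 cells HSP30, at 1779 ± 62.8 CPM per kb, stood above HSP60 and SPO24. Of the 4 members, CDC19 passed the test described next (log2 fold change 0.61 ± 0.12 SE, edgeR adjusted p = 0.00245), while HSC82, HSP60 and SPO24 did not (adjusted p = 0.944, 0.0689 and 0.0531, with fold changes below the 1.5-fold limit). Without knockout library 2 the log2 fold change of CDC19 was 0.40, below that limit.

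Partners often differed widely in level. The partner with fewer counts had a median of 25.3% of the counts of the other, 175 pairs were at least 10-fold apart and 34 at least 100-fold. At the extreme, CDC19 had 101314 and 113472 counts in the knockout libraries, against 116439 and 113737 in the wild-type libraries, and YAL037C-A, which shares 81 nt with it, had 1 and 0 counts in the knockout libraries, against 0 and 0 in the wild-type libraries. FZO1, which encodes a mitofusin, had 9442 and 7912 counts in the knockout libraries, against 10155 and 10100 in the wild-type libraries. Its partner YBR178W had 1 and 1 counts in the knockout libraries, against 3 and 0 in the wild-type libraries. Members with hardly any counts thus occurred opposite abundant mRNAs, as also at OSW1 with 10 counts in all opposite TRE2 with 41418.

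To examine whether loss of Syc1 changed the synthesis of these mRNAs, Δsyc1 was compared with wild-type by the quasi-likelihood test of edgeR, fitted to all 4845 regions with a mean normalized count of at least 30 in either group. Calls needed a change over 1.5-fold with an adjusted p below 0.1. Of the members, 1506 could be tested, and the other 27 had totals between 1 and 112 counts over the 4 libraries. Among those tested, 193 members (12.8%) were called, beside 17.2% of all regions tested. They divided into 89 members called up (5.91%), beside 9.08% of all regions, and 104 called down (6.91%), beside 8.15%. The median log2 fold change was −0.05 in members (quartiles −0.27 and 0.17) and −0.02 over all regions (quartiles −0.25 and 0.24). Thus a smaller share of members than of all regions was called, and the gap was wider for rises than for falls. These shares are descriptions, and the difference between members and the other mRNAs was not tested.

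The split into up and down depended on the scaling. Of the called members, 46.1% were up with TMM factors, 49.7% with DESeq2 size factors, 32.6% with upper-quartile factors and 23.1% with no factors. An offset for the relation between fold change and region length gave 61.7%. The split over all regions moved alike, with 52.7% up with TMM factors, 54.8% with DESeq2 size factors, 41.6% with upper-quartile factors, 32.0% with no factors and 64.2% with the length offset. Upper-quartile factors moved the median log2 fold change of all regions to −0.10 and that of members to −0.13, and no factors moved them to −0.17 and −0.20, so that members stayed just below the median of all regions.

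Length moved with the result. Across genes, which are not independent and share libraries, the log2 fold change rose with region length (Spearman rho 0.31 over 1506 members and 0.34 over the other mRNAs tested). Members were slightly shorter, with a median of 1352 nt against 1418 nt over all regions. Within each range of length the share called was lower in members than in other mRNAs: 16.6% and 23.2% under 1000 nt, 12.6% and 17.9% between that length and 2000 nt, and 8.45% and 14.6% at 2000 nt or more. Convergent mRNAs with a gap were called in 19.7% (202 of 1026) and mRNAs with a same-strand neighbour downstream in 17.7% (380 of 2152).

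**Figure D2:**
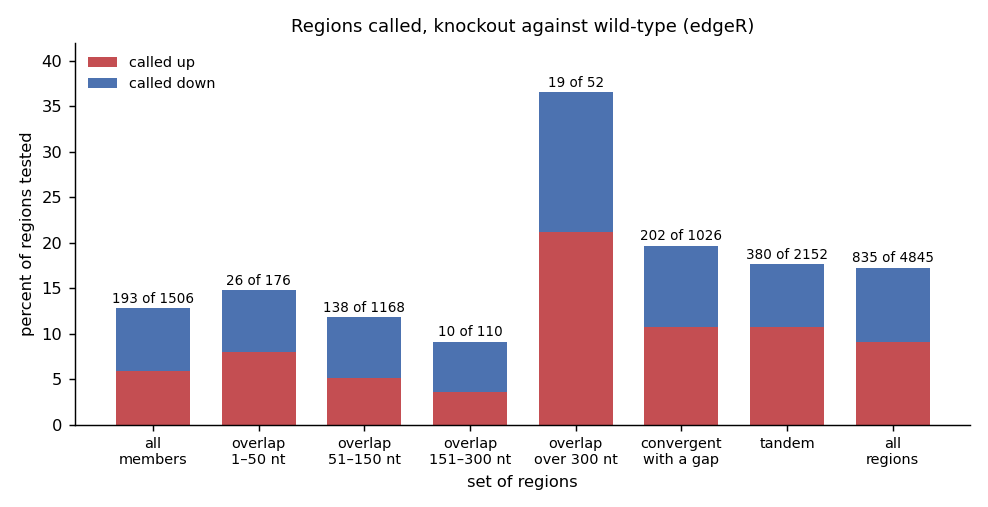
Percent of regions tested (vertical axis) that were called up or down in Δsyc1 against wild-type, for all members, for members by the length of their overlap, and for convergent mRNAs with a gap, tandem mRNAs and all regions; numbers above bars are regions called of regions tested. Members with overlaps up to 300 nt lie below all regions (17.2%), and the 52 members with longer overlaps lie above.

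The share called varied with the length of the overlap. Of those with overlaps up to 300 nt, 174 of 1454 (12.0%) were called. By class, 26 of 176 (14.8%) were called with an overlap of 1 to 50 nt, 138 of 1168 (11.8%) with one of more than 50 and up to 150 nt, and 10 of 110 (9.09%) with one of more than 150 and up to 300 nt. With an overlap of more than 300 nt, 19 of 52 (36.5%) were called, 11 up and 8 down, and this count lay between 17 and 19 in every fit with the same thresholds, those without a library included. Among the 48 of these members with a RefSeq gene, 16 were called. Members with long overlaps had lower levels, with medians of 33.0 CPM per kb in Δsyc1 cells and 29.1 in wild-type cells, and their median log2 fold change was −0.02.

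Over all pairs, the changes of the partners were hardly related. In the 740 pairs with both partners tested, the log2 fold changes had the same sign in 373 (50.4%), and across these pairs, which share the same 4 libraries, Pearson r was −0.06 and Spearman rho −0.02. In 10 pairs the partners were called in opposite directions, in 1 pair both were called up, and in 4 pairs both were called down. A further 75 pairs had 1 partner called up and 84 had 1 partner called down, while 566 had none called. Of convergent neighbours with a gap, 8 of 501 pairs were called in opposite directions and 14 in the same direction (r = 0.07), and of tandem neighbours 20 and 45 of 2124 pairs (r = 0.07). The partner of a member called up had a median log2 fold change of −0.10 (n = 87, 52 of them negative), and the partner of a member called down one of −0.04 (n = 102). Across a gap, the neighbour of an mRNA called up had a median of 0.11 (n = 106). The number of pairs called in the same direction was 8 without knockout library 1, 10 with upper-quartile factors and 14 with no factors; that of opposite pairs was 11, 10 and 11 in these.

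**Figure D3:**
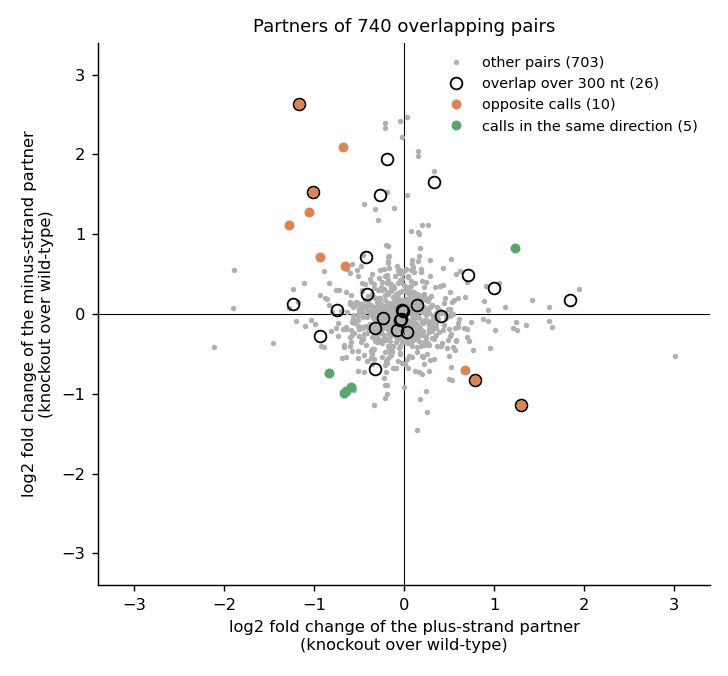
Log2 fold change, Δsyc1 over wild-type, of the plus-strand partner (horizontal axis) and the minus-strand partner (vertical axis) of 740 pairs; open circles mark overlaps over 300 nt, and filled colours mark pairs with both partners called. The points form a cross along the axes. Of the pairs with both partners called, 10 lie in the opposite quadrants and 5 in the matching ones. Over all 740 pairs, 373 had the same sign.

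The widest divergence was at BTT1 and MET32 on chromosome IV. BTT1 (YDR252W, plus strand, 963411 to 964526) encodes a β subunit of the nascent polypeptide-associated complex, and MET32 (YDR253C, minus strand, 963911 to 964768) a zinc-finger activator of sulfur amino acid genes. They share 616 nt, 71.8% of MET32 and 55.2% of BTT1. The annotated end of BTT1 lies 665 nt past its stop codon, so that the shared stretch is 3′ UTR in BTT1 and includes coding sequence of MET32. MET32 had 86.6 and 79.7 CPM in the knockout libraries, against 14.1 and 12.7 in the wild-type libraries. BTT1 had 14.1 and 15.5 CPM in the knockout libraries, against 33.3 and 33.2 in the wild-type libraries. MET32 was thus the more abundant partner in Δsyc1 cells, and BTT1 in wild-type cells. The log2 fold change was 2.63 ± 0.08 for MET32 (SE, edgeR adjusted p = 2.18e-07) and −1.17 ± 0.08 for BTT1 (adjusted p = 9.50e-06).

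HTL1, for a small subunit of the RSC chromatin remodeller, and HSP30, for a stress-induced plasma membrane protein, share 112 nt of 3′ UTR on chromosome III. HSP30 (YCR021C, 155931 to 157220) had 2352 and 2238 CPM in the knockout libraries, against 558 and 519.6 in the wild-type libraries (log2 fold change 2.09 ± 0.07, edgeR adjusted p = 2.40e-07). HTL1 (YCR020W-B, 155289 to 156042) had 11.6 and 10.1 CPM in the knockout libraries, against 16.7 and 18.1 in the wild-type libraries (−0.68 ± 0.11, adjusted p = 0.000764). The groups did not overlap for either partner, as was so for 83.7% of all regions tested. The fall of HTL1 was smaller than the rise of HSP30. With the length offset, HTL1 had a log2 fold change of −0.49, short of the limit.

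GTO1, for a glutathione transferase, and YGR153W share 382 nt on chromosome VII (796556 to 796937), which reach the coding parts of both. GTO1 had 110.2 and 108 CPM in the knockout libraries, against 38.8 and 37.2 in the wild-type libraries, and YGR153W had 4.03 and 4.02 CPM in the knockout libraries, against 8.41 and 7.85 in the wild-type libraries. The log2 fold changes were 1.52 ± 0.06 for GTO1 and −1.02 ± 0.13 for YGR153W (edgeR adjusted p = 3.41e-07 and 0.000233). YKL107W and YKL106C-A, on chromosome XI, lie almost wholly inside each other, with 86.9% and 94.3% of their regions shared. YKL107W had 4.94 and 4.81 CPM in the knockout libraries, against 1.79 and 2.17 in the wild-type libraries, and YKL106C-A had 4.07 and 3.78 CPM in the knockout libraries, against 8.62 and 8.73 in the wild-type libraries. Here, too, the more abundant partner differed between the strains, with log2 fold changes of 1.30 ± 0.17 and −1.14 ± 0.13 (edgeR adjusted p = 0.000249 and 0.000112).

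UTR2 and CYC7 share only the 30 nt printed above. UTR2 (YEL040W, chromosome V, 78033 to 79555) encodes a cell wall enzyme that links chitin to glucan, and CYC7 (YEL039C, 79526 to 80158) encodes the minor isoform of cytochrome c. UTR2 had 328 and 346 CPM in the knockout libraries, against 700.1 and 701 in the wild-type libraries (log2 fold change −1.06 ± 0.05, edgeR adjusted p = 1.38e-06). CYC7 had 4.07 and 3.92 CPM in the knockout libraries, against 1.29 and 2.01 in the wild-type libraries (1.28 ± 0.22, adjusted p = 0.00120). In VHT1, the plasma membrane biotin transporter, values of 343 and 378 CPM in the knockout libraries stood against 179.7 and 154 in the wild-type libraries (1.11 ± 0.08, adjusted p = 1.15e-05). Its partner YGR064W, which has no RefSeq gene, had 18 and 18 counts in the knockout libraries, against 72 and 70 in the wild-type libraries (−1.28 ± 0.24, adjusted p = 0.00201). YGR064W also lies 58.9% inside SPT4, an elongation factor gene on the other strand that was called down (log2 fold change −0.89), so its counts are uncertain.

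**Figure D4:**
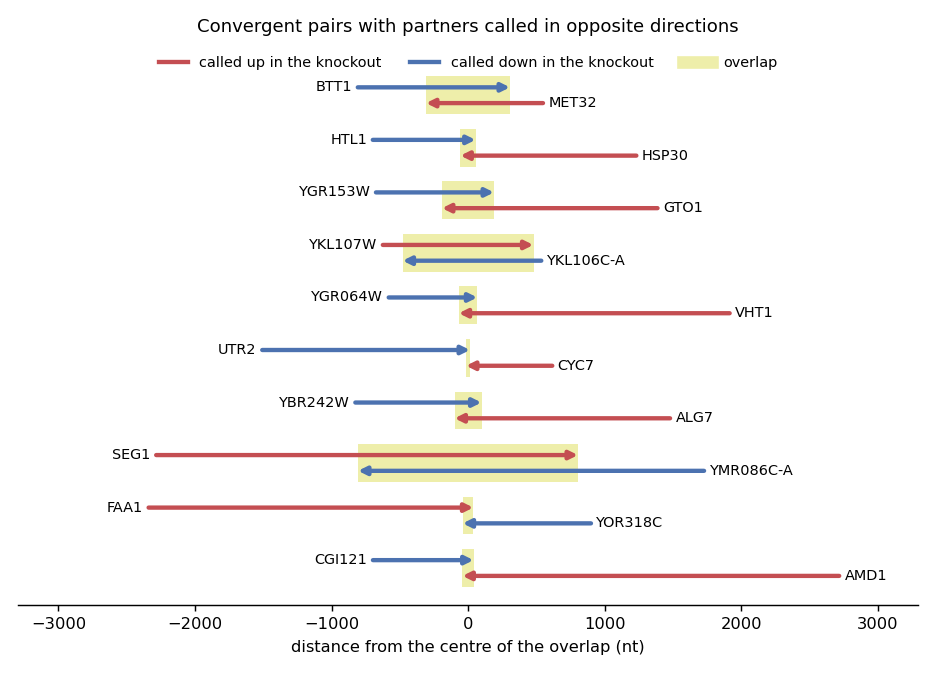
Regions of the 10 pairs with partners called in opposite directions, drawn to scale by distance from the centre of the overlap in nt (horizontal axis); arrows point in the direction of transcription, colours give the call in Δsyc1 against wild-type, and shading marks the overlap. Overlaps of these pairs run between 30 nt (UTR2 and CYC7) and 1612 nt (SEG1 and YMR086C-A).

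The other 4 opposite pairs changed less. ALG7, which encodes the first enzyme of the dolichol pathway of N-glycosylation, was called up and YBR242W down (log2 fold changes 0.72 and −0.94). SEG1, an eisosome gene, had 515 and 539 CPM in the knockout libraries, against 306 and 304 in the wild-type libraries, and was called up, and YMR086C-A, with 16.9 and 19.0 CPM in the knockout libraries, against 31.8 and 31.6 in the wild-type libraries, was called down (0.79 and −0.82). YMR086C-A also lies 26.9% inside PDL32, a region on the other strand that was called up (log2 fold change 0.93), so its counts are uncertain if strand was not used. FAA1, for a fatty acyl-CoA synthetase, was called up and YOR318C down (0.67 and −0.71), and AMD1, for AMP deaminase, up and CGI121, for a KEOPS subunit, down (0.60 and −0.66). The partner called up was the more abundant of its pair in 9 of the 10 pairs in Δsyc1 cells, the exception being CYC7, and in 7 of the 10 in wild-type cells. The pairs of ALG7, FAA1 and AMD1 lie outside the rule for named pairs and are given to complete the set.

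**Figure D5:**
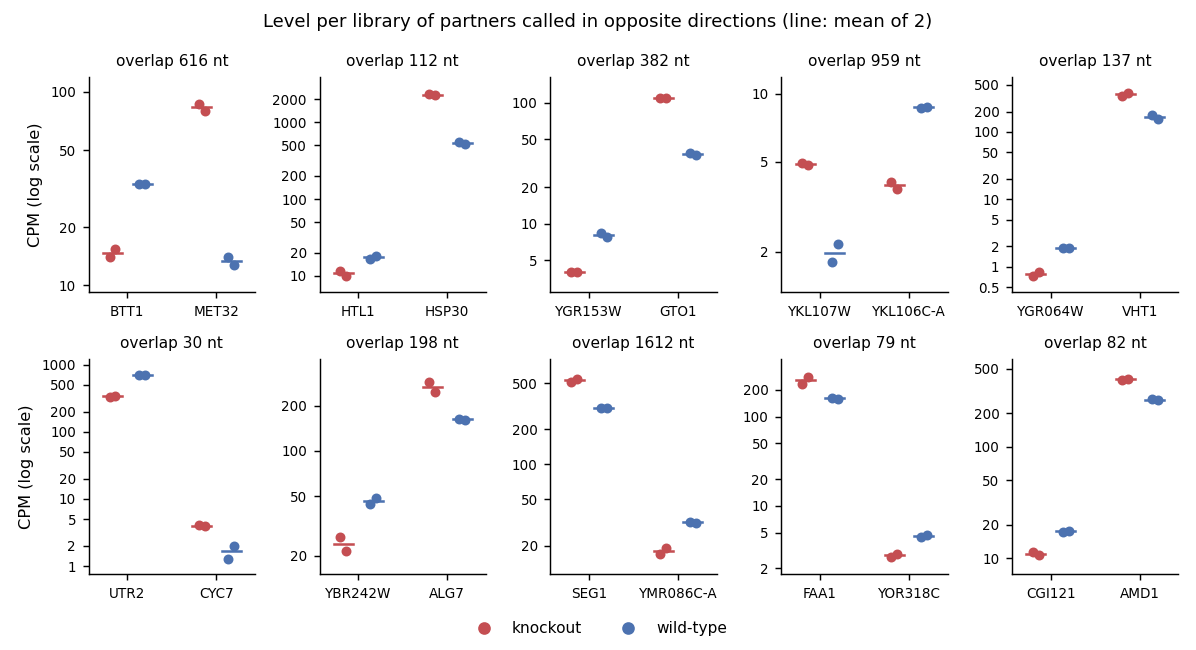
CPM per library (vertical axes, log scale, a separate range for each pair) of the 10 pairs with opposite calls; for each gene, knockout libraries are on the left and wild-type libraries on the right, points are libraries and lines the mean of 2. The libraries of the knockout and the wild-type do not overlap for any of these 20 genes, as they do not for 83.7% of all regions tested.

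In 5 pairs both partners were called in the same direction. ARO9, for an aromatic aminotransferase, and YHR138C rose together. ARO9 had 114 and 117 CPM in the knockout libraries, against 47.8 and 50.3 in the wild-type libraries, and YHR138C had 10.3 and 9.67 CPM in the knockout libraries, against 4.88 and 6.43 in the wild-type libraries. The log2 fold changes were 1.24 ± 0.06 and 0.82 ± 0.15 (edgeR adjusted p = 9.89e-07 and 0.00158). In the other 4 pairs both partners fell. VMA22, for a V-ATPase assembly factor, had 11.3 and 9.25 CPM in the knockout libraries, against 16.7 and 20.2 in the wild-type libraries, and GIC1, for an effector of Cdc42, had 47.4 and 41.3 CPM in the knockout libraries, against 70.4 and 77.9 in the wild-type libraries (log2 fold changes −0.84 and −0.74). COQ10, for a coenzyme Q binding protein, had 8.89 and 9.06 CPM in the knockout libraries, against 15.0 and 13.4 in the wild-type libraries, and CSI2 had 72.8 and 62.3 CPM in the knockout libraries, against 129 and 140.2 in the wild-type libraries (−0.66 and −0.99). The groups did not overlap for any of these genes, nor for 83.7% of all regions tested. SHR3, for a chaperone of amino acid permeases, had 58.7 and 59.8 CPM in the knockout libraries, against 93.8 and 91.5 in the wild-type libraries, and YDL211C had 17.9 and 16.4 CPM in the knockout libraries, against 33.2 and 34.0 in the wild-type libraries (−0.65 and −0.97). SPO12, a mitotic exit gene, had 24.4 and 20.2 CPM in the knockout libraries, against 33.7 and 33.7 in the wild-type libraries, and SPO16, a meiotic gene, averaged 1.55 ± 0.113 CPM in Δsyc1 cells and 2.92 ± 0.108 CPM in wild-type cells (SD, n = 2 each; log2 fold changes −0.59 and −0.91). Some were close to the limit: with DESeq2 size factors SPO12 had −0.58, without knockout library 2 SPO12 had −0.47, and without wild-type library 1 COQ10 had −0.58. With the length offset SPO12 had −0.37, COQ10 −0.48 and SHR3 −0.47.

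Among the 26 pairs with overlaps over 300 nt, 15 had at least 1 partner called, 4 had partners called in opposite directions and 0 had partners called in the same direction by edgeR or DESeq2 (7 pairs had both partners at an unadjusted p under 0.05 with the same sign). Across members of all pairs, 963 of the 1506 tested were under that p. The longest overlap, 1743 nt, joins CTF19, for a kinetochore protein, and IRC15, for a microtubule-associated protein, on chromosome XVI (518180 to 519922). IRC15 had 17.3 and 19.2 CPM in the knockout libraries, against 5.09 and 4.37 in the wild-type libraries, while CTF19 had 63.9 and 63.3 CPM in the knockout libraries, against 71.4 and 73.6 in the wild-type libraries. IRC15 rose (log2 fold change 1.94 ± 0.12, edgeR adjusted p = 4.42e-06), and CTF19 was not called (−0.19 ± 0.06, adjusted p = 0.0189). YDR124W and ECM18 share 1662 nt. YDR124W was called up with 26.0 and 26.3 CPM in the knockout libraries, against 16.3 and 15.7 in the wild-type libraries (0.71 ± 0.08), and ECM18 had 54.3 and 60.2 CPM in the knockout libraries, against 42.7 and 39.0 in the wild-type libraries (0.49 ± 0.08), under the limit. With no factors YDR124W had 0.56, also under the limit.

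CHL4, for another kinetochore protein, and RMD5, for a subunit of the GID ubiquitin ligase, share 1410 nt on chromosome IV (965600 to 967009), the next convergent pair after BTT1 and MET32. CHL4 had 108 and 103 CPM in the knockout libraries, against 53.2 and 52.0 in the wild-type libraries, and RMD5 had 129 and 138 CPM in the knockout libraries, against 107 and 105 in the wild-type libraries. CHL4 rose (log2 fold change 1.00 ± 0.06, edgeR adjusted p = 2.84e-06), and RMD5 was not called (0.33 ± 0.06). Further rises among these pairs, named after their values were seen, were those of PHM8, for a lysophosphatidic acid phosphatase (1.84 ± 0.08, with its partner KRE29 at 0.18), and ASI3, for a ubiquitin ligase subunit of the inner nuclear membrane (1.66 ± 0.06, with IDP3 at 0.33). Among the falls, CWC25, a splicing factor gene, had −0.70 ± 0.08, with its partner VPS75 at −0.32. RSA1, the member of 2 pairs, had −0.02, with PRM3 at 0.06 across an overlap of 611 nt and MIY2 at 0.29 across 5 nt.

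The largest rises of single members were those of MET3, MET32, DIN7, TMA10 and STF2, and BTT1 was the only partner of these that was called. MET3 (YJR010W, chromosome X, 456156 to 457903), for ATP sulfurylase, the first enzyme of sulfate assimilation, had 1608 and 1492 CPM in the knockout libraries, against 208 and 178 in the wild-type libraries (log2 fold change 3.01 ± 0.09, edgeR adjusted p = 2.14e-07). Its partner SPC1, for a signal peptidase subunit, shares 58 nt and had 7.49 and 7.15 CPM in the knockout libraries, against 11.2 and 9.91 in the wild-type libraries (−0.53 ± 0.12), just under the limit of 1.5-fold. DIN7, for a mitochondrial nuclease induced by DNA damage, had 76.6 and 76.3 CPM in the knockout libraries, against 14.2 and 13.3 in the wild-type libraries (2.47 ± 0.07), and its partner YDR262W had 0.03 ± 0.06. The stress-induced genes TMA10 and STF2 had log2 fold changes of 2.42 ± 0.08 and 2.39 ± 0.08, with −0.05 for the partner YLR326W and −0.21 for the partner ECT1.

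The largest falls were those of YNL276C, OAC1, HHF2, FUS1 and HLR1. YNL276C, which has no RefSeq gene, had 50 and 30 counts in the knockout libraries, against 514 and 594 in the wild-type libraries (log2 fold change −3.10 ± 0.18, edgeR adjusted p = 2.83e-06). Its partner YNL277W-A was not tested. However, 90.3% of YNL276C lies opposite MET2, the homoserine acetyltransferase gene, which is no member and had 21165 and 18156 counts in the knockout libraries, against 8542 and 7369 in the wild-type libraries, and which was called up. The fall of YNL276C thus stood opposite a rise on the other strand, and its counts are uncertain if strand was not used. OAC1, for the mitochondrial oxaloacetate carrier, had 47.5 and 44.2 CPM in the knockout libraries, against 192 and 204 in the wild-type libraries (−2.11 ± 0.06, adjusted p = 2.18e-07), and its partner VPH2, across the 21 nt shown above, had −0.41 ± 0.11. FUS1, a cell fusion gene of mating, had 32.7 and 27.7 CPM in the knockout libraries, against 109.7 and 115 in the wild-type libraries (−1.89 ± 0.08), while its partner HBN1, for a nitroreductase-like protein, had 896 and 760.0 CPM in the knockout libraries, against 547 and 584 in the wild-type libraries (0.55 ± 0.08, under the limit). HLR1 had −1.46 ± 0.06, with its partner QCR7, a complex III gene, at −0.37 ± 0.07.

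Members without a RefSeq gene formed a small group of 26, of which 16 were tested. Of these, 8 were called down, among them YNL276C, YLL037W, YGR064W and YMR086C-A, and 1 was called up, beside 8.15% called down and 9.08% called up over all regions. Their levels were low, with medians of 1.32 CPM per kb in Δsyc1 cells and 2.39 in wild-type cells, and 10 had too few counts to be tested. Another of them, YLR120W-A, lies 90.0% inside YPS3, for a yapsin protease of the cell surface, and had 7 and 6 counts in the knockout libraries, against 23 and 28 in the wild-type libraries, too few to be tested. YPS3 had 15.3 and 14.5 CPM in the knockout libraries, against 31.9 and 32.5 in the wild-type libraries (log2 fold change −1.11 ± 0.08, edgeR adjusted p = 1.03e-05). The split by RefSeq gene was made after the values were seen.

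Members were also looked up in gene lists, which were chosen with earlier results of these data known. Each list count includes the members, so a shared direction of a list and its members is no separate result. The counts of all lists stand beside 9.08% of all regions called up and 8.15% called down, and 1 call in a list with few members gives no result about that list. Of sulfur assimilation and methionine genes, 20 of 23 tested were called up, and 5 of 5 members were, namely MET3, MET32, SAM2, MET28 and SAM1. SAM2, for S-adenosylmethionine synthetase, had 1052 and 1096 CPM in the knockout libraries, against 337 and 285 in the wild-type libraries (log2 fold change 1.79 ± 0.08), and its isozyme SAM1 had 1028 and 1061 CPM in the knockout libraries, against 725 and 644 in the wild-type libraries (0.61 ± 0.07). SAM1 was near the limit and had 0.58 without knockout library 2 and 0.53 without wild-type library 2. MET28, a regulator that acts with Met4, had 1.98 ± 0.07. The partners of SAM2, MET28 and SAM1, which are PLM2, YIR016W and VTA1, had log2 fold changes of 0.33, 0.15 and −0.06, and were not called.

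Of histone genes, 8 of 10 were called down, and all 3 members were. HHF2, for histone H4, had 149.5 and 134 CPM in the knockout libraries, against 496 and 559 in the wild-type libraries (log2 fold change −1.90 ± 0.08, edgeR adjusted p = 4.52e-07). HTB2, for H2B, had 68.6 and 70.4 CPM in the knockout libraries, against 152 and 174 in the wild-type libraries (−1.23 ± 0.07), and HHT2, for H3, had −0.72 ± 0.06. Histone genes have near-identical copies, and 12.0% of the 50-mers of HHF2 and 7.02% of those of HHT2 occur elsewhere in the genome, so their counts are uncertain. HHF2 and HHT2 are neighbours that each face another gene, KTR5 and SIW14, which had log2 fold changes of 0.08 and −0.20. HTB2 shares 1 nt with ECM15 (0.31).

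Of stress response and trehalose genes, 19 of 23 were called up, including both members, HSP30 and GSY2. GSY2, for glycogen synthase, had 339.9 and 389.7 CPM in the knockout libraries, against 114 and 119 in the wild-type libraries (log2 fold change 1.64 ± 0.07), and its partner HSP60 was given above. Of mating genes, 8 of 12 were called down, and 2 of 4 members, FUS1 and STE2. STE2, the α-factor receptor gene, had 312 and 287 CPM in the knockout libraries, against 735 and 723 in the wild-type libraries (−1.28 ± 0.06), beside BST1 at 0.08. Of cell cycle genes 13 of 22 were called down and 1 of 3 members, YHP1, for a homeobox repressor (−1.06 ± 0.08). Of cytosolic ribosomal protein genes, 40 of 130 were called down and 3 up. Among their 13 members, RPP2B, RPL40A, RPS27A and RPS12 were called down (log2 fold changes −0.73, −1.18, −1.10 and −0.89) and 0 up. Of the 50-mers of RPL40A, 5.64% occur elsewhere in the genome, so its counts are uncertain. Of glycolysis and fermentation genes 5 of 17 were called up, and of their 3 members CDC19. With the length offset HHT2 had −0.50, RPP2B −0.47 and CDC19 0.57, under the limit.

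Genes of 3′ end formation were also members. In these small lists the calls were few, beside 9.08% of all regions called up and 8.15% called down. Of CPF genes, 2 of 14 were called up and 0 down, and of their 4 members REF2, for an RNA-binding subunit that CPF and APT share, was called up. REF2 (YDR195W, chromosome IV, 848361 to 850284) averaged 159 ± 11.8 CPM in Δsyc1 cells and 66.7 ± 0.159 CPM in wild-type cells (SD, n = 2 each; log2 fold change 1.26 ± 0.07, edgeR adjusted p = 1.62e-06). HRP1 (YOL123W, chromosome XV, 87465 to 89587), for a cleavage factor I protein that binds efficiency elements, had 572 and 548 CPM in the knockout libraries, against 187 and 179 in the wild-type libraries (1.61 ± 0.05, adjusted p = 2.40e-07). Its partner SMF1, across an overlap of 22 nt, had 0.09 ± 0.06, and CAB5, the partner of REF2 across 101 nt, had −0.20 ± 0.07. Of nuclear exosome and TRAMP genes, 4 of 18 were called down, and of their 7 members MPP6, for an exosome cofactor (−0.65 ± 0.10). MPP6 had −0.55 without knockout library 2, −0.56 without wild-type library 2 and −0.44 with the length offset, each under the limit. The only member of the termination factor list, 7 members of the elongation and antisense control list, 3 of cohesin and condensin and 18 of mitochondrial ribosomal proteins were not called by edgeR or DESeq2, with 1, 2, 0 and 9 of them at an unadjusted p under 0.05. Across all members, 963 of the 1506 tested were under that p. In these lists 0 of 6, 1 of 17, 1 of 13 and 4 of 60 genes were called, all down.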

How the data were processed

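Paired-end reads were aligned by the authors to sacCer3 with STAR 2.3.0 (per the labels), filtered with SAMtools at a mapping quality minimum of 7, and counted per region with HTSeq. The raw counts that the authors deposited cover 4 libraries, described as biological replicates. All value columns matched a sample (0 did not). The strand setting of the counting is not given in the sources used here. A deposited table of the authors' own DESeq2 comparison (mean count, log2 fold change, p-value) was not used. The deposited region annotation gave positions.

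Counts were tested with edgeR 4.0.16 in R 4.3.3: regions with a mean count over DESeq2 1.42.0 size factors of at least 30 in either group, TMM factors, group as the only term, Benjamini-Hochberg over all regions, calls at adjusted p under 0.1 and over 1.5-fold. The standard error is the log2 fold change over the square root of F, which is approximate. Depth was 22880058 to 36175417 counts per library, and precision between strains rests on 2 libraries each. Intervals were not computed for single values.

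Positions of pairs and motifs were read with Python 3.11.15, numpy 2.4.6 and pandas 2.3.3, and RefSeq R64 gave symbols and stop codons. Motifs were searched as exact letters on the transcript strand. Figures used matplotlib 3.10.9. Named genes are the pairs with opposite (up to 6) or matching calls, the 4 longest overlaps, the 2 largest shares overlapped, the 4 highest levels, the 3 largest ratios between partners, the 5 largest rises and falls, called members of 14 gene lists, and SYC1. The members and lists were chosen with earlier results of these data known. Alternatives were other scaling factors, the DESeq2 test, other filters and thresholds, a length offset, a replicate block, leaving out each library, and other definitions of members.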

Additional observations from a re-analysis of the deposited data

How the results depend on the processing

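Alternatives were run for the counts of members called, their median, pairs called, the members with overlaps over 300 nt and SYC1, and for each named gene. With no fold change minimum, members called rose to 1007 of 1506 (66.9%), beside 69.0% of all regions tested. These were 431 members called up and 576 members called down, with 38 members called at overlaps over 300 nt. At that setting, 160 pairs were called in opposite directions and 170 pairs in the same direction. With no normalization factors, 59 members called up, 196 members called down and 14 pairs called in the same direction were found. Upper-quartile factors gave 10 such pairs. The share of members called with no normalization factors was 16.9%, beside 19.9% of all regions tested. The median log2 fold change of members was −0.20 with no normalization factors, −0.13 with upper-quartile factors, −0.039 with DESeq2 size factors, −0.040 in the DESeq2 test, −0.023 with the length offset and −0.022 with that offset and a replicate block, and lay between −0.062 and −0.043 when each library was left out. Leaving out each library gave 174 to 240 members called (90 to 104 up, 84 to 136 down) and 5 to 8 pairs called in the same direction. Of the named genes, HSC82 alone changed sign, with a log2 fold change of −0.090 with the length offset, −0.090 with the offset and block, −0.15 with no factors, −0.077 with upper-quartile factors and −0.061 to 0.067 without each library. Members took 22.9% of all counts, 19.7% with overlaps of at least 50 nt, 22.1% when they overlapped exactly 1 region, 22.7% without repeats and 20.4% without the 10 most abundant members. Library numbers were not taken to pair the samples. Deviations of same-numbered libraries correlated at −0.18 over 4845 regions. With 2 libraries per group, this value cannot decide whether the numbers pair the samples. Crossed numbers, chosen after seeing the data, gave 195 members called. With the replicate block 196 members were called, 193 of them also called without it. Members with the length offset that were also called without it numbered 143 of 188. At this depth, 27 members were not testable.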

Other observations

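Over all regions tested 17.2% were called, 9.08% up and 8.15% down, and each share here stands beside these. Members on the plus strand were called in 13.7% and those on the minus strand in 12.0%. Further splits of the members were made after the values were seen and are given as values only. Of members with TATATA in the last 100 nt, 92 of 764 tested (12.0%) were called, and of members without it 101 of 742 (13.6%); among the other mRNAs the shares were 17.5% and 19.0%. By what the overlap covers, 95 of 762 members (12.5%) were called where it lay in the 3′ UTR of both partners, 59 of 542 (10.9%) where it reached the coding part of 1 partner and 26 of 162 (16.0%) where it reached that of both. In pairs at least 10-fold apart in counts, the lower partner was called down in 18 of 149 tests and up in 11, and the higher partner was called down in 7 of 175 and up in 19. These partners also differed in length, with medians of 759 nt for the lower and 1900 nt for the higher. Fold change rose with length, and a part of level apart from length was not tested.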
